A study of Homo sapiens with 8 samples.

Results

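Cancer-testis antigen genes are genes whose transcripts are found mainly in germ cells of the testis and, out of place, in tumours. They were taken here by symbol from the count table: the MAGEA, MAGEB, MAGEC, GAGE, PAGE, XAGE, SSX and SPANX families, and 10 single genes (PASD1, CTAG1B, CTAG2, PRAME, BRDT, TEX14, DAZL, DDX4, SYCP1 and SYCP3). This gave 82 genes of the 32803 in the table. Of the 82, 69 lie on chromosome X in RefSeq's annotation of GRCh38.p14, and 6 symbols had no match there. Read counts per gene were available for 8 RNA-seq libraries in 4 groups of 2. UWB1.289 is an ovarian cancer line without functional BRCA1 (passage 29, parental deficient), and Olres-UWB1.289 is its derivative resistant to inhibitors of poly(ADP-ribose) polymerase (passage 56, resistant deficient). UWB1.289+BRCA1 is the same line with BRCA1 restored (passage 10, parental proficient), and Olres-UWB1.289+BRCA1 is its resistant derivative (passage 45, resistant proficient). All cells grew in drug-free medium. Whether the derivatives are single clones or pools is not given in the sources used here. Each line is a single derivation, so BRCA1 state cannot be told apart from the history of the line, nor resistance from passage.

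In somatic cells most of these genes are kept silent by methylation of CpG sites at their promoters and by repressive chromatin, and tumour cells that lose this silencing can express them. MAGE proteins of the A, B and C families bind ubiquitin ligases of the RING type. The proteins are studied as targets of tumour vaccines and T cells, since peptides of them can be shown to T cells by HLA class I molecules.

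The libraries held 24094821 to 34394107 counts, so 3 counts, the limit that a count of 0 allows, stood at 0.0861 to 0.125 CPM (read counts scaled to the TMM-adjusted library total) in a library. BRCA1 stood at 35.1 to 36.1 CPM in parental and 34.7 to 34.8 CPM in resistant deficient libraries, at 212 and 191 CPM in parental proficient and at 2176 and 2365 CPM in resistant proficient libraries. All 11 ovarian carcinoma markers reached 1 CPM in at least 1 library, while WT1 was under 1 CPM on average in 3 of the 4 groups (0.0658 to 0.219 CPM, against 8.50 in resistant proficient cells). Of 8 genes of late testis germ cells, 1 (ACRV1) reached 1 CPM in any library, PRM1, TNP1 and TNP2 were at 0 in all 8, and the 8 genes together summed to 0.564 to 2.12 CPM.

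Most cancer-testis antigen genes had few or no counts in all 4 lines, which for near-identical copies does not show that the RNA was absent. Of the 82, 52 had 0 counts in all 8 libraries, 14 had 1 to 9 counts in all, 10 had 10 or more counts but stayed below the filter on low counts, and 6 passed it. The 6 were PRAME, PASD1, TEX14, MAGEA1, MAGEA3 and MAGEA6. A gene at 1 CPM or more in a library was rare among them: 1 gene in each of the 4 deficient libraries, 2 in each parental proficient library, and 5 and 4 in the resistant proficient libraries. Over all genes of the table, 39.9% to 41.3% reached 1 CPM in a library, against 1.22% to 6.10% of the cancer-testis genes. The 6 genes had passed the filter in part because they are high in some group, so their counts of calls are given with the share of all genes called and do not stand for the 82.

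**Figure D1:**
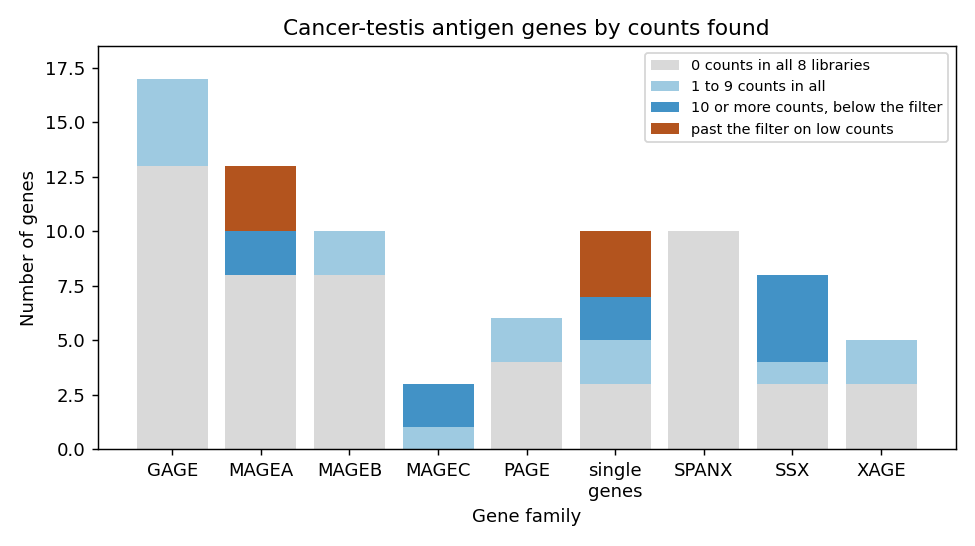
Number of genes (y axis) in each family (x axis), divided by the counts found over the 8 libraries. All 10 SPANX genes and 13 of 17 GAGE genes were at 0 counts, and 3 MAGEA genes and 3 single genes passed the filter.

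The promoter sequences of the genes that the results turn on are shown first, with that of a silent neighbour, because CpG sites at the promoter are where the known silencing acts. Each run is the 250 bases before the annotated start, 5′ to 3′ on the strand of the gene, from RefSeq with build GRCh38.p14, and capitals mark CpG sites. The counts were made on GRCh37, and these windows carry no measurement of their own in the data.
PASD1 (chrX:151563425-151563674, plus strand): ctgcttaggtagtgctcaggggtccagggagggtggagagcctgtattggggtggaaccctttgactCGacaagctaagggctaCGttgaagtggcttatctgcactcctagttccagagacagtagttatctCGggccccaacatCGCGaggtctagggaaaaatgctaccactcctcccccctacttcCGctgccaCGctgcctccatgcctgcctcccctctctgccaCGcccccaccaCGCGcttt
PRAME (chr22:22559266-22559515, minus strand): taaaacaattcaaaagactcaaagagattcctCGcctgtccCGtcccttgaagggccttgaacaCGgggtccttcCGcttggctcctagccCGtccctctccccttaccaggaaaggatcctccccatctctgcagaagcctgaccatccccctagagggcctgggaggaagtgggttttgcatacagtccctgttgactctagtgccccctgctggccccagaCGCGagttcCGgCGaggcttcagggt
MAGEA3 (chrX:152698544-152698793, plus strand): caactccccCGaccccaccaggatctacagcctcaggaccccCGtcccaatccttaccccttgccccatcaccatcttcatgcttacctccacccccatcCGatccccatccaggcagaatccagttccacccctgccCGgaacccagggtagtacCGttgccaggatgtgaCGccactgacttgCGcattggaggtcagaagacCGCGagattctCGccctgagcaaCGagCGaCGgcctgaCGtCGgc
MAGEA12 (chrX:152733507-152733756, plus strand): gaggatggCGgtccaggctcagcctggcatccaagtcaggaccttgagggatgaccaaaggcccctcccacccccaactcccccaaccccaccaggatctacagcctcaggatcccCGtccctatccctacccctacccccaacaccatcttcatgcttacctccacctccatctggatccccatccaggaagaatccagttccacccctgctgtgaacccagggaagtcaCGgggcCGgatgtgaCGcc

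The window of MAGEA6 (chrX:152769690-152769939, minus strand) matched that of MAGEA3 at 250 of 250 bases, so it is not printed again. PASD1 held 10 CpG sites, PRAME 9, MAGEA3 and MAGEA6 15 each, and MAGEA12, which was at 0 counts in all libraries, 5. Each window ends at the annotated start, and that of MAGEA12 ends at a run of bases that lies further upstream in the MAGEA3 window. These windows do not cover matching stretches, so 15 and 5 are not a like-for-like contrast. Of the promoters of all 27305 genes with a window, 51.7% held at least as many CpG sites as PASD1, 53.6% as many as PRAME and 42.5% as many as MAGEA3. Windows were found for 68 of the 82 genes, and their CpG number ran from 0 to 28 with a median of 8, against a median of 10 for all genes. The 44 windows of genes at 0 counts had a median of 8 and those of the other members 8.5, so the CpG number gave no visible split. No window is given for MAGEA1 and TEX14.

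Several of these families are near-identical copies, and how reads that match several places were counted is not given in the sources used here. Each transcript was therefore cut into windows of 50 bases that were searched for in the transcripts of all other genes of GENCODE release 29. Of the 78 members with a transcript, 32 had at least 90% of windows to themselves and 16 had none. The 16 without a window of their own included SSX2 and SSX2B, SSX4 and SSX4B, XAGE1A and XAGE1B, SPANXA1 and SPANXA2, and MAGEA2 and MAGEA2B. Among the 50 members at 0 counts that have a transcript, 19 had at least 90% unique windows and 17 had under 10%, and for the latter a 0 does not show that the RNA was absent. With windows of 100 bases these numbers were 25 and 15. PRAME (100%), MAGEA1 (99.3%), TEX14 (96.8%) and PASD1 (88.4%) can be counted nearly alone. MAGEA3 and MAGEA6 had 43.8% and 43.4% unique windows, 54.5% of the windows of either being shared with the other, so that their separate values are uncertain.

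**Figure D2:**
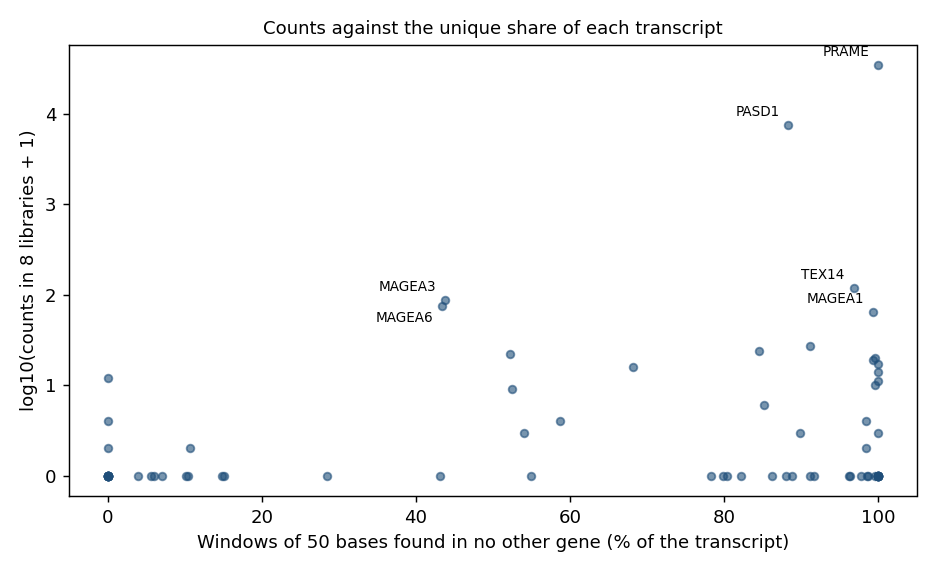
Each point is 1 of 78 genes: the share of its 50-base windows found in no other gene (x axis, %) against log10 of its counts over 8 libraries plus 1 (y axis). Genes at 0 counts stand at both ends, with 17 under 10% and 19 at 90% or more, and MAGEA3 and MAGEA6 lie near 44%.

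PRAME, which encodes a leucine-rich repeat protein that represses retinoic acid receptor signalling and is found in many ovarian carcinomas, was the most highly expressed member in every line. It stood at 176 and 166 CPM in parental deficient, 143 and 138 CPM in resistant deficient, 114 and 122 CPM in parental proficient and 156 and 149 CPM in resistant proficient libraries. The libraries of the parental lines were the extremes, deficient highest and proficient lowest, and the resistant lines lay between them without overlapping either. Per kilobase of transcript, its mean level was at or above that of 89.1% to 93.2% of the 15378 tested genes with a known length in the 4 groups.

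The PRAME difference between resistant and parental cells had opposite signs in the 2 backgrounds. In deficient cells PRAME went from 171 ± 6.94 down to 140.2 ± 3.33 CPM (SD, n = 2 libraries), a log2 fold change of -0.28 with a standard error of 0.07 (adjusted p = 0.00373 in the edgeR fit across all genes). In bulk RNA, fewer cells of a type and less RNA per cell cannot be told apart. In proficient cells it rose from 118 ± 5.07 to 152 ± 5.57 CPM, a log2 fold change of 0.37 ± 0.07 (edgeR adjusted p = 0.000718). The difference between these effects was 0.65 ± 0.09 (edgeR adjusted p = 0.000220), and it passed under all 17 alternatives that were run. Between the parental lines PRAME was lower in proficient cells, with a log2 difference of -0.53 ± 0.07 (edgeR adjusted p = 3.86e-05), or -0.31 with each library's trend on GC content removed (by edgeR adjusted p = 5.91e-06). Between the resistant lines the difference was 0.12 ± 0.07 (edgeR adjusted p = 0.121), which became 0.34 with that trend removed (edgeR adjusted p = 1.42e-06). An antisense gene that overlaps PRAME held 40 counts over the 8 libraries, and without the strand setting of the counting the reads of both cannot be separated.

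PASD1, whose product carries a PAS domain and can repress the circadian activators CLOCK and BMAL1, was present in the proficient lines and all but absent in the deficient lines. It had 0 and 0 counts in parental deficient, 1 and 0 in resistant deficient, 1557 and 1929 in parental proficient and 2236 and 1828 in resistant proficient libraries. All 4 proficient libraries lay above 1500 counts and all 4 deficient ones at 1 or 0. In CPM the proficient libraries were at 62.8 and 66.7 (parental) and 77.6 and 76.1 (resistant). Against a floor of 3 counts over the group, PASD1 was at least 1411-fold higher in parental proficient than in parental deficient cells (edgeR adjusted p = 6.00e-10). Between the resistant lines 4064 counts stood against 1, which makes PASD1 4795 times as high in proficient cells (95% interval 860 to 189443, by edgeR adjusted p = 1.36e-10). Per kilobase of transcript, PASD1 was at or above 77.8% and 82.6% of the tested genes in parental and resistant proficient cells, below PRAME in both (20.5 and 24.3 CPM per kilobase, against 42.8 and 55.3).

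Resistance made no called difference to PASD1. The proficient lines differed by 0.25 ± 0.10 on the log2 scale (edgeR adjusted p = 0.0641). Of 18 alternatives 11 passed the threshold, and their adjusted p ran from 0.0105 to 0.228. In deficient cells no fold is given, since both groups were under the floor. The nearest coding neighbours of PASD1 in the gene order of GRCh38.p14 were expressed at similar levels in both backgrounds, or very low. VMA21, a chaperone gene for the proton pump of lysosomes, stood at 82.5 CPM in parental deficient and 95.3 CPM in parental proficient cells (0.21, edgeR adjusted p = 0.0687). PRRG3, on the other side, was under 1 CPM on average in all 4 groups, and was higher in parental proficient than in parental deficient cells (27 counts against 6, 2.40, edgeR adjusted p = 0.0219), as PASD1 was. FATE1 and CNGA2 beyond it were at 0 counts in all libraries.

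**Figure D3:**
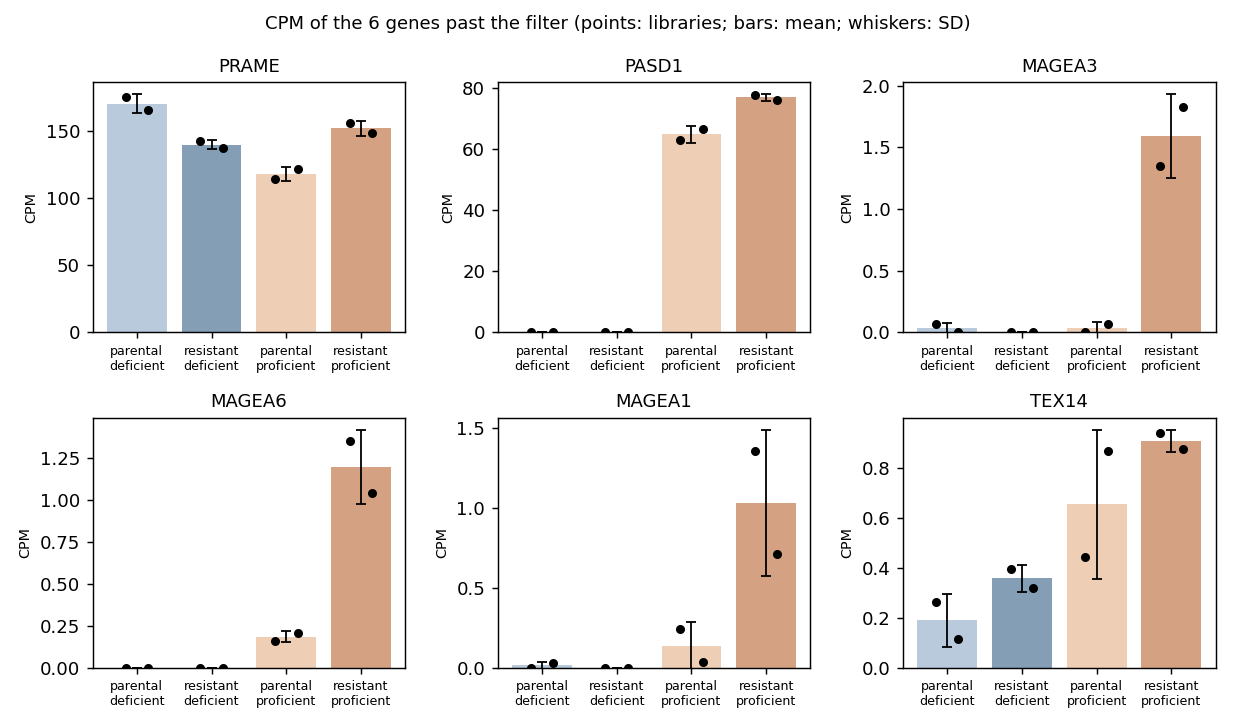
CPM (y axis, linear, each panel with its own range) of the 6 members past the filter in the 4 groups (x axis). Points are libraries, bars their mean and whiskers the SD (n = 2). PRAME is high in all groups, PASD1 at 62.8 to 77.6 CPM in proficient libraries alone, and MAGEA1, MAGEA3 and MAGEA6 above 0.7 CPM in resistant proficient libraries alone.

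MAGEA1, MAGEA3 and MAGEA6, the members of the MAGEA family that were detected above the filter, were low everywhere but in resistant proficient cells. MAGEA3 had 2 and 0 counts in parental deficient, 0 and 0 in resistant deficient, 0 and 2 in parental proficient, and 39 and 44 in resistant proficient libraries. MAGEA6 had 0 counts in all 4 deficient libraries, 4 and 6 in parental proficient and 39 and 25 in resistant proficient libraries. MAGEA1 had 0 and 1, 0 and 0, 6 and 1, and 39 and 17 counts in the same order of groups. Every resistant proficient library lay above every other library for each of the 3 genes. Their levels there were still low, with means of 1.59 ± 0.338 CPM for MAGEA3, 1.20 ± 0.221 CPM for MAGEA6 and 1.03 ± 0.456 CPM for MAGEA1 (SD, n = 2). Per kilobase they were at or above 24.5%, 21.4% and 20.3% of the tested genes.

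All 3 rose with resistance in proficient cells. MAGEA3 went from 2 counts to 83, 42.2 times as high (95% interval 11.3 to 354, by edgeR adjusted p = 0.000498). Its fitted log2 fold change was 5.27, and 8.54 without parental proficient replicate 2, which held both counts of its group. MAGEA6 rose by 2.67 ± 0.58 on the log2 scale (edgeR adjusted p = 0.00362). MAGEA1 rose by 2.94 ± 0.78 (edgeR adjusted p = 0.00916), a call that ended with DESeq2 (adjusted p = 0.0562), without parental proficient replicate 2 (2.08, edgeR adjusted p = 0.0840) and without resistant proficient replicate 1 (2.43, edgeR adjusted p = 0.0986), and it was 4.78 without parental proficient replicate 1. MAGEA1 shared 0.662% of its windows of 50 bases with another gene, MAGEA4, which was at 0 counts. Of the markers of other cell types, the 5 leukocyte genes summed to 27.8 to 28.4 CPM in resistant proficient libraries and to 5.22 to 16.1 CPM in the others. With resistance in proficient cells the mean of CD14 went from 2.47 to 21.3 CPM and that of PTPRC from 12.8 down to 6.24 CPM, while CD3E was at 0 in both groups. The part of these genes in the rise was not tested. In deficient cells none of the 3 had more than 2 counts in a group, so no fold change with resistance is given there.

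Between the resistant lines MAGEA3, MAGEA6 and MAGEA1 were at least 32.6-, 25.2- and 22.0-fold higher in proficient cells, with edgeR adjusted p of 9.44e-05, 9.53e-05 and 0.000420. Between the parental lines MAGEA6, with 10 counts against 0, was at least 4.05-fold higher in proficient cells (edgeR adjusted p = 0.0103), while MAGEA3 (2 counts in either group, edgeR adjusted p = 0.909) and MAGEA1 (7 counts against 1, edgeR adjusted p = 0.131) did not pass. The difference between the resistance effects of the backgrounds passed for MAGEA3 (8.30 ± 2.78, edgeR adjusted p = 0.0325), rests on a resistant deficient group at 0 counts, and was lost without parental deficient replicate 1 (which held both of the counts of that group), parental proficient replicate 1 (0.0516) or resistant proficient replicate 2 (0.0666). For MAGEA1, with 1 count in deficient cells, it did not pass (5.14 ± 3.28, by edgeR adjusted p = 0.229), and for MAGEA6, with 0 counts there, it cannot be estimated.

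No other gene of the MAGEA family passed the filter on low counts. MAGEA4, MAGEA5, MAGEA9, MAGEA9B, MAGEA10, MAGEA2, MAGEA2B and MAGEA12 were at 0 counts in all libraries. MAGEA12, MAGEA4 and MAGEA10 had 91.2%, 96.4% and 82.2% unique windows, and MAGEA5 43.1%. MAGEA9 and MAGEA9B had 6.01% and 5.69%, and MAGEA2 and MAGEA2B had none, so for these a 0 does not show that the RNA was absent. MAGEA8 held 4 and 4, 0 and 0, 0 and 4, and 4 and 2 counts in parental deficient, resistant deficient, parental proficient and resistant proficient libraries, and MAGEA11 0 and 0, 0 and 1, 4 and 10, and 4 and 0. Beside MAGEA6, the centriole gene CETN2 rose from 32.0 to 52.2 CPM with resistance in proficient cells (0.71, edgeR adjusted p = 8.46e-05), while the sterol gene NSDHL gave 0.20 (edgeR adjusted p = 0.0557) and ZNF185 fell by 1.54 on the log2 scale (edgeR adjusted p = 1.14e-07).

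**Figure D4:**
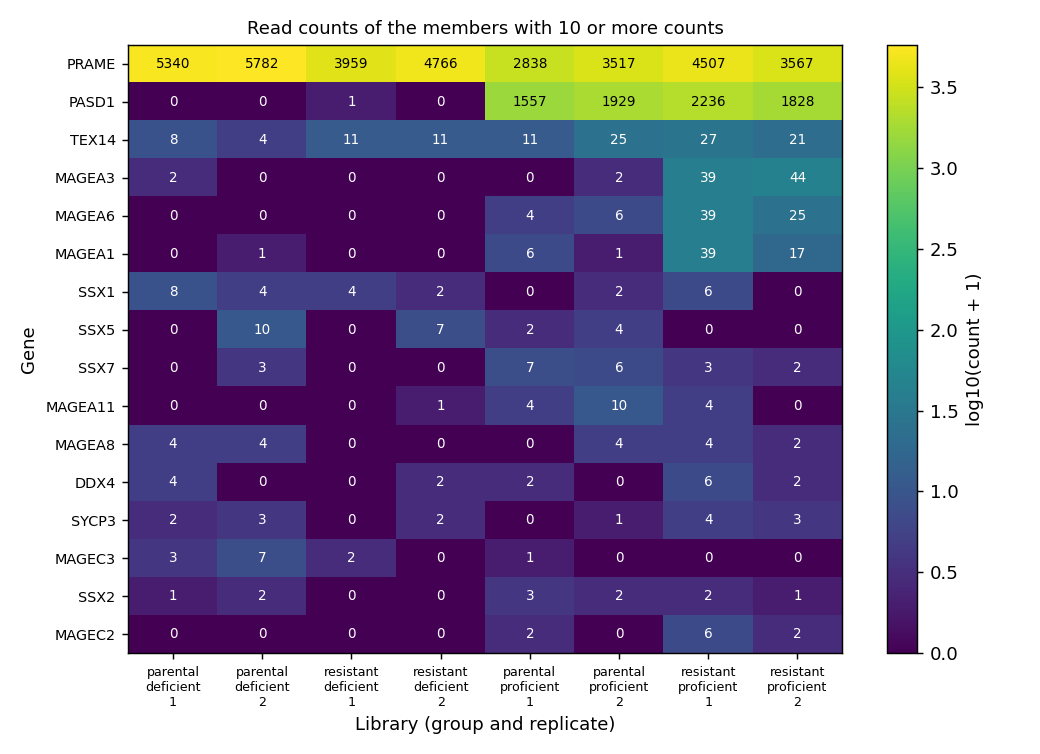
Read counts of the 16 members with 10 or more counts (rows) in the 8 libraries (columns), with the colour showing log10 of the count plus 1. PRAME is at 2838 counts or more throughout, PASD1 above 1500 in the 4 proficient libraries, and MAGEA1, MAGEA3 and MAGEA6 between 17 and 44 in resistant proficient libraries.

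TEX14, which encodes a protein of the bridges between dividing germ cells, was detected at a trace level. It had 8 and 4 counts in parental deficient, 11 and 11 in resistant deficient, 11 and 25 in parental proficient and 27 and 21 in resistant proficient libraries, or 0.189 ± 0.105, 0.357 ± 0.0551, 0.654 ± 0.298 and 0.906 ± 0.0442 CPM (SD, n = 2). The deficient libraries were lower than the proficient libraries, in each pair of lines without overlap. TEX14 was higher in proficient cells by 1.81 ± 0.58 in the parental pair (edgeR adjusted p = 0.0180) and by 1.34 ± 0.51 between the resistant lines (edgeR adjusted p = 0.0334). TEX14 shared 2.50% of its windows with an antisense gene. Both calls ended with DESeq2 (adjusted p = 0.0864 and 0.171), the first also without parental deficient replicate 2 (edgeR adjusted p = 0.157) or parental proficient replicate 2 (0.183), and the second with the GC trend removed (0.0710) and without any 1 of the 4 resistant libraries (0.0692 to 0.141). With resistance it gave 0.92 in deficient and 0.45 in proficient cells (edgeR adjusted p = 0.232 and 0.455).

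The remaining detected members stayed at a few counts per library. DDX4, the germ cell helicase gene, had 0 to 6 counts in a library and SYCP3, a gene of the synaptonemal complex, 0 to 4. SSX1, SSX2, SSX5 and SSX7, whose products are transcriptional repressors, had 0 to 10 counts in a library, and MAGEC2 and MAGEC3 0 to 7. BRDT had 3 counts in all 8 libraries together and CTAG1B, which encodes the antigen NY-ESO, had 1. SYCP1, DAZL and CTAG2 had 0. The 4 GAGE genes with a count summed to 6, the 2 PAGE genes to 11 and the 2 XAGE genes to 2. Summed over all family members without the 3 MAGEA genes above, the libraries held 11 to 36 counts, and the resistant proficient libraries (30 and 17 counts, or 1.04 and 0.708 CPM) lay within the range of the others.

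Set beside all genes, the counts of calls among the 6 tested members were as follows. With resistance in deficient cells 0 members rose and 1 fell, where 28.9% of all tested genes rose and 27.0% fell (55.8% in either direction). With resistance in proficient cells 4 rose and 0 fell, where 25.9% of all genes rose and 27.8% fell (53.7% in either direction). Between the parental lines 3 were higher and 1 lower in proficient cells, against 32.3% and 30.1% of all genes (62.4% together). Between the resistant lines 5 were higher and 0 lower, against 36.3% and 37.5% of all genes (73.8% together), and with a filter of 1 CPM in at least 2 libraries 3 were higher, since MAGEA1 and TEX14 were then not tested. The difference between the resistance effects passed for 2 members and 46.7% of all genes. The median log2 fold change of the 6 was -0.14, 1.56, 2.31 and 8.04 in the 4 pairwise comparisons, and that of all genes lay between -0.02 and 0.03. These medians contain fitted values of genes at 0 counts, which depend on the prior count. MAGEA1, MAGEA3 and MAGEA6 passed the filter through their counts in resistant proficient cells. Calls and medians in comparisons with that group therefore follow in part from the filter and are no result about the gene set. MAGEA3 and MAGEA6 also share sequence and are not independent entries among the 6.

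Further cancer-testis genes of chromosome X, listed separately, mostly had few or no counts as well. Of 36 in the table (CT45 and CT47 genes, SAGE1, CSAG genes and others), 22 were at 0 counts in all libraries and 2 were tested. NXF2B, a copy of an RNA export factor gene that has a near-identical partner, had 2 counts in parental deficient, 0 in resistant deficient and parental proficient, and 37 in resistant proficient cells, at least 12.5-fold higher than in parental proficient cells (edgeR adjusted p = 0.00245). PLAC1, a trophoblast gene, fell from 1.61 ± 0.242 to 0.328 ± 0.0960 CPM with resistance in deficient cells (-2.30 ± 0.35, edgeR adjusted p = 0.000234) and stood at 2.43 and 2.28 CPM in parental and resistant proficient cells.

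Autosomal and other genes of meiosis and the germline were more widely expressed. Of 57 listed, 6 were at 0 in all libraries and 30 were tested. With resistance in deficient cells 15 fell and 7 rose, with a median log2 fold change of -0.90 against 0.03 for all genes, of which 27.0% fell and 28.9% rose. The 5 fibroblast markers summed to 48.7 to 58.0 CPM in parental and to 9.76 CPM or less in resistant deficient libraries. COL1A2 had means of 51.6 and 1.01 CPM, while COL1A1 went the other way, from 1.71 to 6.04 CPM. DCN and LUM were at 0 in both groups, and the part of these markers in the result was not tested. REC8, the meiotic cohesin subunit, fell from 113 ± 7.91 to 11.9 ± 3.88 CPM (-3.24 ± 0.21, edgeR adjusted p = 5.37e-07), and LIN28B, an RNA-binding repressor of let-7, fell from 231 counts to 0, at least 73.6-fold lower. DDX43 and SYCP2L also fell, and SYCP2, an axial element protein of meiotic chromosomes, rose by 1.38 ± 0.13 (edgeR adjusted p = 7.96e-06).

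With resistance in proficient cells 9 germline genes rose and 9 fell (25.9% and 27.8% of all genes), with a median of -0.19. SPAG17, a gene of the sperm flagellum, rose by 3.52 ± 0.40 from 31 to 359 counts, and TDRD6, a Tudor domain gene of germ granules, rose by 2.49 ± 0.34 (edgeR adjusted p = 2.22e-05 and 0.000103). MOV10L1, a helicase gene of the piRNA pathway, fell by 3.44 on the log2 scale, and SMC1B, another meiotic cohesin gene, by 1.45 (edgeR adjusted p = 8.20e-06 and 3.45e-07). Between the parental lines 11 were higher and 4 lower in proficient cells (32.3% and 30.1% of all genes). DDX43, a helicase gene also counted among the cancer-testis antigens, was higher by 2.23 ± 0.12 (6.66 against 31.3 CPM, edgeR adjusted p = 1.01e-07). REC8 was lower by a log2 difference of -5.16 ± 0.24 (edgeR adjusted p = 2.53e-08).

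Of the type II MAGE genes, which share the MAGE domain but are expressed in many tissues, 0 were without counts in all libraries. MAGED4 and MAGED4B were low, with group means of 0.0833 to 0.606 CPM and 0.271 to 0.739 CPM. Of 11, 10 were tested, and those called in both resistance comparisons are given first. MAGED1 fell by 0.65 on the log2 scale with resistance in deficient cells, from 95.5 ± 0.888 to 61.0 ± 4.51 CPM, and rose by 0.57 in proficient cells, from 157 ± 2.95 to 232 ± 12.2 CPM (by edgeR adjusted p = 3.06e-05 and 4.68e-05). MAGEE1 likewise gave -0.72 and 0.98 (by edgeR adjusted p = 0.00545 and 0.000692), and MAGEF1 gave 0.38 and -0.32 (0.00292 and 0.00780). The latter call of MAGEF1 ended without replicate 1 of either proficient line, with an adjusted p of up to 0.115. NDN, the necdin gene, rose in both, by 0.60 ± 0.11 and 0.80 ± 0.11 (edgeR adjusted p = 0.000725 and 0.000110). In all, 4 rose and 2 fell in deficient cells (28.9% and 27.0% of all genes). Among those that rose, MAGED4B (18 to 45 counts, edgeR adjusted p = 0.0430) lost its call with DESeq2, with the GC trend removed and with any single library left out. In proficient cells 3 rose and 1 fell (25.9% and 27.8% of all genes), the latter becoming 2 when the GC trend was removed.

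Of 44 genes of DNA methylation and of the repressors that act on germline promoters, 43 were tested. With resistance 15 rose and 19 fell in deficient cells and 5 rose and 15 fell in proficient cells, with medians of -0.10 and -0.15. This was 34.9% and 44.2% of the 43 in deficient cells, against 28.9% and 27.0% of all genes, and 11.6% and 34.9% in proficient cells, against 25.9% and 27.8%. With the GC trend removed 15 rose and 16 fell in deficient cells, where 5068 and 4431 of all 16221 tested genes did. In proficient cells 7 then rose and 20 fell, where 4768 and 5412 of all tested genes did. DNMT3B, a de novo DNA methyltransferase, was lower in both resistant lines. The deficient pair stood at 42.0 ± 3.95 and 12.5 ± 0.862 CPM (-1.75 ± 0.10, by edgeR adjusted p = 2.12e-07). The proficient pair stood at 112 ± 2.21 and 31.4 ± 0.356 CPM (-1.84 ± 0.09, by edgeR adjusted p = 4.78e-08). EZH2, the catalytic subunit of the polycomb complex PRC2, fell in proficient cells by 1.20 on the log2 scale (edgeR adjusted p = 2.33e-07). TFDP1, a partner of E2F factors, fell in deficient cells from 132 ± 4.60 to 6.29 ± 0.845 CPM (-4.38 ± 0.11, edgeR adjusted p = 6.18e-10). Between the parental lines 18 were higher and 12 lower in proficient cells (41.9% and 27.9% of the 43, against 32.3% and 30.1% of all genes). Among them were DNMT3B (1.41 ± 0.09, edgeR adjusted p = 2.40e-07) and UHRF1, a factor that maintains methylation (-1.66 ± 0.23, edgeR adjusted p = 9.33e-05). The part of these factors in the levels of PASD1 or the MAGEA genes was not tested.

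Genes that load peptides on HLA class I molecules were tested in full (10 of 10). Between the parental lines 8 were lower and 0 higher in proficient cells, against 30.1% and 32.3% of all genes. Among the 8 was TAP2, a subunit of the peptide transporter, with a log2 difference of -0.69 ± 0.10 (78.8 against 48.9 CPM, edgeR adjusted p = 0.000116). With the GC trend removed 7 were lower and 1 higher, where 4905 and 5349 of all 16221 tested genes were. The 3 endothelial markers summed to 38.6 to 41.1 CPM in parental deficient and 2.49 to 3.99 CPM in parental proficient libraries, mostly from CDH5, and their part in the result was not tested. With resistance in proficient cells 3 rose and 4 fell (25.9% and 27.8% of all genes), the latter being TAP1, TAP2, PSMB8 and PSMB9. TAP2 fell from 48.9 ± 0.535 to 17.1 ± 2.86 CPM (-1.51 ± 0.11, by edgeR adjusted p = 6.01e-07). With resistance in deficient cells 4 fell and 1 rose (27.0% and 28.9% of all genes). These became 8 and 0 when the GC trend was removed, where 4431 and 5068 of all 16221 tested genes fell and rose.

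**Figure D5:**
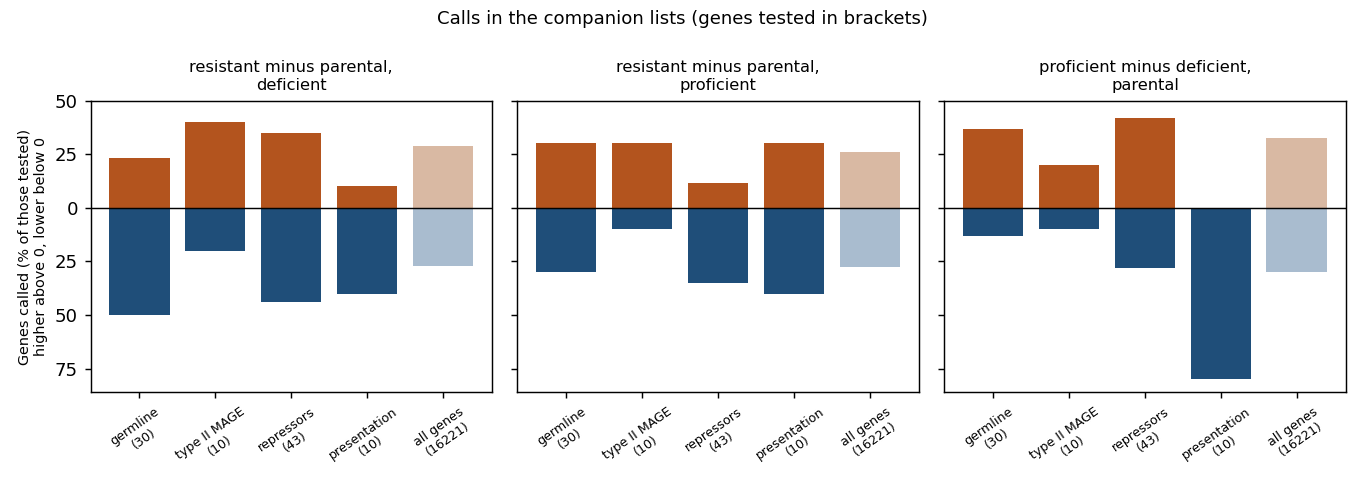
Share of tested genes (y axis, %) called higher (above 0) or lower (below 0) in 4 companion lists and in all genes, for 3 comparisons. In the parental comparison 8 of 10 presentation genes were lower in proficient cells, against 30.1% of all genes.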

How the data were processed

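Total RNA of 8 samples of ovarian cancer cells was sequenced, and the authors deposited whole read counts per gene symbol, without normalisation. Trimmomatic 0.39, featureCounts from Subread 2.0.1, DESeq2 1.24.0 and build GRCh37 appear in the submitters' processing notes, with no role or order. The sources used here give no annotation, strand setting or treatment of reads with several matches. Groups were taken from the titles. All 8 libraries (24094821 to 34394107 counts) entered 1 quasi-likelihood fit of edgeR 4.0.16 in R 4.3.3, with TMM factors and filterByExpr, which kept 16221 genes and left 4 residual degrees of freedom. A gene was called when its p, adjusted by Benjamini-Hochberg over all of these, was under 0.05. The SE is the log2 fold change divided by the square root of F. The labels do not say that the replicates came from separate cultures, and p-values then reflect the spread of these samples alone, possibly a technical one. Replicates differed beyond sampling noise in all 4 groups (chi-square per degree of freedom 3.73 to 18.7).

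Where a group held 0 counts, a bound was computed from 3 counts in the whole group. A group of 1 to 3 counts gave a ratio with its exact 95% interval. These cover counting error only. Among values of 1 to 12, 58.5% to 64.0% were even in a library, so that counts may not be single molecules and intervals of low counts are too narrow. An alternative with halved counts was added after seeing the data, as was the GC correction combined with the replicate block. The other alternatives were RLE factors, library totals, no filter, a filter of 1 CPM in 2 libraries, DESeq2 1.42.0, a fit of the compared groups only, a block for replicate number, removal of each library's trend on GC content (spline with 5 degrees of freedom, known for 94.8% of tested genes), and each library left out. Transcript lengths, GC contents and windows came from GENCODE release 29, promoters from RefSeq.

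Members called in any comparison and members with 10 or more counts were named. From the companion lists up to 4 called genes per direction with the smallest p could be named, and 1 result is not reported here. The members and lists were chosen with earlier results of these data known. The fit was tested on simulated data.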

Additional observations from a re-analysis of the deposited data

Results flagged for a closer look

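The resistance effect of 2 of the 6 tested members differed between the backgrounds by the test of that difference, as did that of 46.7% of all tested genes. For PRAME the log2 fold change was 0.65 higher in proficient than in deficient cells (edgeR adjusted p = 0.000220), with a fall in deficient cells (both resistant libraries below both parental ones) and a rise in proficient cells (both above). For MAGEA3 the difference was 8.30 (edgeR adjusted p = 0.0325, and between 0.00542 and 0.9999 under the alternatives run), from 2 and 0 counts in deficient cells and 2 and 83 counts in proficient cells. The latter size depends on the prior count and is no bound.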

How the results depend on the processing

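Of the 9 counts of called members, 7 stayed within 1.5 times of the reported value under all alternatives run. The number of members higher in resistant proficient than in resistant deficient cells was 3 in place of 5 with the filter of 1 CPM in 2 libraries, since fewer genes were tested. The number with a called difference between the resistance effects ran from 1 to 2 with single libraries left out and was 1 with halved counts, the call of MAGEA3 being the one lost. Directions that turned were among values that had not passed: the TEX14 difference between resistance effects (-1.14 to 0.10 with single libraries left out, above 0 without replicate 2 of either parental line), that of PASD1 (-2.90 to 0.29, above 0 without resistant deficient replicate 1, which held its only count there), and MAGEA3 between the parental lines (-3.04 to 3.27, with -0.80 without parental deficient replicate 2 and -3.04 without parental proficient replicate 2). With single libraries left out, the rise of MAGEA3 in proficient cells ran from 4.47 to 8.54 and that of MAGEA1 from 2.08 to 4.78. With the replicate number as a block, 4 members rose in proficient cells, as without it. Deviations of same-numbered libraries correlated at -0.10 to 0.21 over the comparisons, the labels name no shared batch, and the numbers were not taken to pair the samples. Counts of a few reads, which hold for all members but PRAME and PASD1, limit what can be seen.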

Other observations

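A few members below the filter had uneven counts, named here after their values were seen and without a test. MAGEC1 had 2 and 7 counts in resistant proficient libraries and 0 in the other 6. MAGEC3 had 3 and 7 counts in parental deficient libraries, 2 and 0 in resistant deficient, 1 and 0 in parental proficient and 0 and 0 in resistant proficient libraries. SSX5 had 10 counts in replicate 2 and 0 in replicate 1 of parental deficient cells, and 7 and 0 in the same replicates of resistant deficient cells. Next to MAGEA3 in the gene order of GRCh38.p14, the GABA receptor gene GABRQ stood at 0.260 to 0.310 CPM in the other 3 groups and at 0.906 CPM in resistant proficient cells (rise with resistance in proficient cells of 1.75, edgeR adjusted p = 0.0231), and GABRA3 had 8 and 7 counts there against 0 to 2 in each other library. VCX3B, a further cancer-testis gene of chromosome X, had 13 counts over both resistant proficient libraries and 0 in parental proficient and resistant deficient cells.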
